A study of Homo sapiens with 37 samples.

Results

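The integrated stress response genes described here are ATF4, ATF5, DDIT3, DDIT4, TRIB3, ASNS, CHAC1, SESN2, PSAT1 and PHGDH, chosen by name as transcripts known to be controlled by the transcription factor ATF4 or to belong to its response. All 10 were found among the 32055 genes of the UMI count table and all 10 passed the filter on low counts, which left 10661 genes. They were followed over 37 libraries of K562, an established human erythroleukemia cell line. In 26 libraries, labelled KO, ZBTB7A had been disrupted with Cas9 and 1 of 2 gRNAs, and in 11 libraries, labelled control, the cells had received the Cas9 vector with no gRNA. ZBTB7A encodes a zinc finger repressor with roles in blood cell differentiation and glycolysis. Per the methods of the study, lines of both kinds were grown from sorted single cells, and the labels name each library only by a 6-base barcode. Clone, gRNA and day are therefore unknown, libraries of one clone may be repeats, and a p-value measures the spread between libraries, part of which may be technical.

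When eIF2, the factor that brings the initiator tRNA to the ribosome, is phosphorylated on its alpha subunit by one of the kinases HRI, PKR, PERK and GCN2, general translation falls while ATF4 mRNA, held back by upstream open reading frames, is translated more. ATF4 then switches on genes for amino acid synthesis, uptake and tRNA charging, together with genes that dampen growth or promote death. Most control of ATF4 itself lies in translation, so its transcript level is not its activity, and its targets are the usual readout in RNA data.

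Libraries were made by SCRB-seq, which counts the 3′ end of each captured mRNA molecule once by its unique molecular identifier (UMI). Totals ranged from 1070250 to 4270901 UMIs in the KO libraries and from 563235 to 4710809 in the control libraries. The median total was lower in KO, at 2030965 UMIs against 3518944 in control. The 10 genes together held 722 to 7336 UMIs in a control library and 1339 to 4760 in a KO library. Levels are given as log2 CPM, the log2 of the count scaled to the library's size after TMM, with a prior count of 2. Log2 fold changes and differences between groups were fitted by edgeR to the counts and need not equal the difference of the printed means. ZBTB7A mRNA had a log2 fold change of 0.12 between KO and control (adjusted p = 0.331), which does not check the labels, since a count of 3′ ends does not show whether the coding sequence was edited. The erythroid markers GATA1, TAL1, KLF1 and TFRC were all abundant, with a mean of at least 185 UMIs per library, while the myeloid markers CD14, LYZ and CSF1R and the megakaryocyte markers PF4, PPBP and ITGA2B stayed below the filter. Of the lymphoid markers, CD3D was the only one tested, with 13 to 329 UMIs in control and 1 to 56 in KO libraries, while CD3E and CD79A were near 0. CD3D was lower in KO (log2 fold change -1.85), with an edgeR adjusted p of at most 3.8e-05 in the 37 fits without 1 library. Some libraries lay toward the other group in several genes. The KO library with barcode GGCCAC was the KO library nearest to the controls for PSAT1, GPT2, SLC7A5 and STC2. The control library ATATAG was the lowest control for these 4 genes and for ATF4, where its 8.02 log2 CPM lay below the KO median of 8.12. The control library CGGTGG was the lowest control for DDIT4, with 4.65 against a KO median of 5.23. All are kept below, and values without GGCCAC are given at the end.

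The promoters of 2 genes held the core of the C/EBP-ATF response element, the composite site at which ATF4 binds with a C/EBP partner. RefSeq promoters (GRCh38.p14, 250 bases before to 50 bases after the annotated start) were searched on both strands for TGATGNAA, where N is any base. Of the 10 promoters, those of ASNS and CHAC1 had it, against 3.67% of 27305 promoters of the same length. In ASNS (chr7:97872359-97872658, minus strand) the match began 68 bases before the start, and in CHAC1 (chr15:40953221-40953520, plus strand) the printed strand carried its reverse complement, beginning 209 bases before the start. The palindrome TGACGTCA, the cAMP response element to which many ATF factors bind, was in none of the 10 and in 1.98% of all promoters. The promoter of PSAT1 (chr9:78296875-78297174, plus strand), the gene whose levels separated the groups most, held neither motif and is shown beside them. Sequences are printed 5′ to 3′ along the gene, with the match in capitals. A match is only a run of letters, and such elements can also lie outside this window.

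ASNS: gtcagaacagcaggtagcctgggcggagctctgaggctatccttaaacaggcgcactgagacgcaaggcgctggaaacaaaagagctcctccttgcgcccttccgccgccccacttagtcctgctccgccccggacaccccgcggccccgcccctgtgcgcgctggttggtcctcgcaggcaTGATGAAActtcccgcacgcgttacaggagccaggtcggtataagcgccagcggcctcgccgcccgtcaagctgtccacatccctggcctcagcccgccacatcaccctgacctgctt
CHAC1: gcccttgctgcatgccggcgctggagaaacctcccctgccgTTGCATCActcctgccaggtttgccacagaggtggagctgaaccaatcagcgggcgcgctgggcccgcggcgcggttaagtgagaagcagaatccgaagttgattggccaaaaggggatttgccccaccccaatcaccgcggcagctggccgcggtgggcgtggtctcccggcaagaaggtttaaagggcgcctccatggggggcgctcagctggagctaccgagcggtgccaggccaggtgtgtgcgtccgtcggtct
PSAT1: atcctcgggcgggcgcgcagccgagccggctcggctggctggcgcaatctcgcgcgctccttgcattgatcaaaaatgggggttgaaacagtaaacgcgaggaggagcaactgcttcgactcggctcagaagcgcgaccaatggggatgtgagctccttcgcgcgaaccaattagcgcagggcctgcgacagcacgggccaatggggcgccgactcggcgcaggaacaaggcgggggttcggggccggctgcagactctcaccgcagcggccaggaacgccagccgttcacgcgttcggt

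In the KO libraries 4 of the 10 genes were lower, namely ATF4, PSAT1, DDIT4 and CHAC1, and none was higher (edgeR quasi-likelihood test, Benjamini-Hochberg adjusted p below 0.05). Among all genes tested 33.8% passed this threshold, 17.7% higher and 16.2% lower, so change was common in these libraries and the 4 lower genes of 10 are to be read against that share. With an absolute log2 fold change above 0.5 as well, PSAT1 and DDIT4 remained, against 3.53% of all genes lower and 6.65% higher. The median log2 fold change of the 10 genes was -0.23, against -0.0046 over all genes tested. At an unadjusted p under 0.05 with edgeR, PHGDH was lower as well (p = 0.0458) and 1 member was higher, DDIT3 (p = 0.0261). With DESeq2 DDIT3 also passed after adjustment.

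**Figure D1:**
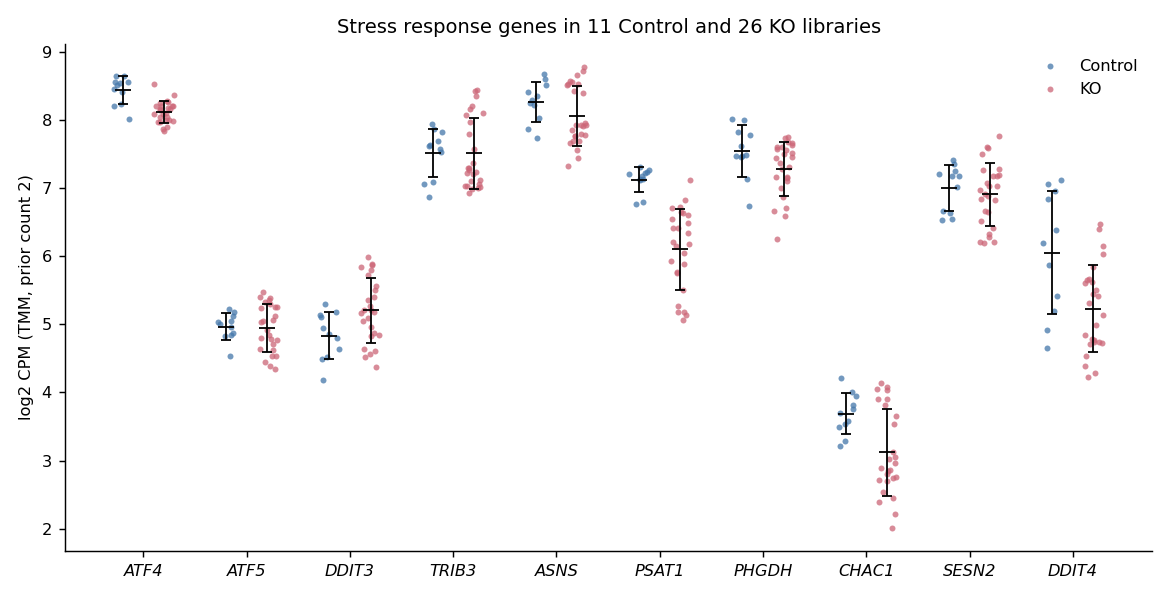
Level of the 10 genes in log2 CPM (vertical axis) in each control library (blue, left) and KO library (red, right); each point is 1 library and black bars give the mean and SD. PSAT1 shows the clearest separation, with 24 of 26 KO libraries under the lowest control, while TRIB3 and ASNS overlap over most of their range.

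ATF4 (ENSG00000128272, chromosome 22, 39519695 to 39522683, GRCh38), the central transcription factor, had 8.02 log2 CPM in its lowest, 8.51 in its median and 8.66 in its highest control library. In the KO libraries it had 7.84, 8.12 and 8.53. Only 1 of the 26 KO libraries lay above the control median, that with barcode GGCCAC, and 8 lay below the lowest control, so the groups overlapped but were shifted. The mean was 8.44 ± 0.20 (SD, n = 11) for the controls against 8.12 ± 0.16 (SD, n = 26) for KO, a fitted log2 difference of -0.33 with a standard error of 0.06 (adjusted p = 3.61e-05). Counts were high, with 190 to 1714 UMIs per control and 305 to 1188 per KO library. Processed pseudogene copies of ATF4 held at most 267 UMIs each over all libraries against 28595 for ATF4 itself.

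ATF5 (ENSG00000169136, chromosome 19, 49928702 to 49933935), a related factor that is also translated more under stress, had 4.54, 5.0 and 5.22 log2 CPM in the lowest, median and highest control library and 4.35, 4.98 and 5.48 in KO. KO libraries lay on both sides of the control range, 9 above and 4 below. The mean was 4.95 ± 0.35 (SD, n = 26) over the KO and 4.97 ± 0.20 (SD, n = 11) over the control libraries, and the fitted log2 difference of 0.023, with a standard error of 0.11, did not pass (adjusted p = 0.901). The sign was not stable: the KO mean is slightly lower, and the fitted value among AT-rich barcodes was -0.054. The gene overlaps IL4I1 on the opposite strand by 838 bases, and IL4I1 had 13681 UMIs over all libraries against 2927 for ATF5. ATF5 also overlaps NUP62 on the opposite strand, by 1063 bases. Since strand use in counting is not stated, reads of the overlaps cannot be assigned with certainty.

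DDIT3 (ENSG00000175197, chromosome 12, 57516588 to 57521737), which encodes CHOP, the factor tied to death under prolonged stress, had the largest positive difference of the 10 genes. It had 4.19, 4.86 and 5.30 log2 CPM in the lowest, median and highest control library and 4.37, 5.20 and 5.99 in KO. No KO library lay below the lowest control and 10 lay above the highest, with 16 in the control range. The difference of 0.36 on the log2 scale, with a standard error of 0.15, missed the threshold (adjusted p = 0.0698). It passed with DESeq2 (0.39, adjusted p = 0.0356), with scaling by library size alone (adjusted p = 0.0499) and with all libraries thinned to the depth of the shallowest (0.65, adjusted p = 0.00727). The thinning was drawn only once, so its random error is not known. DDIT3 also passed when the KO library AAAACT or AAATTG or GCTCGC or GGCCAC, or the control library TACTAT, was left out. The lowest adjusted p was then 0.0427. In 32 of the 37 fits that left out 1 library it did not pass. Among AT-rich barcodes alone it fell short with a log2 fold change of 0.14. It also fell short with limma-voom (0.25, adjusted p = 0.181), with no filter on low counts (0.34, adjusted p = 0.189) and with barcode GC as covariate (0.32, adjusted p = 0.14). DDIT3 overlaps MARS1, the methionyl-tRNA synthetase gene, on the opposite strand by 982 bases, and MARS1 had 21889 UMIs over all libraries against 3129 for DDIT3. MARS1 itself was lower in KO (-0.13, adjusted p = 0.0459), and its part in the DDIT3 counts was not tested.

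TRIB3 (ENSG00000101255, chromosome 20), a pseudokinase induced by ATF4 and CHOP that feeds back on ATF4, had 6.88, 7.63 and 7.95 log2 CPM in the lowest, median and highest control library and 6.93, 7.28 and 8.45 in KO. Its KO values were spread widely: 8 of the 26 lay above the highest control although only 9 lay above the control median. The median in KO was thus lower than in control while the means, 7.51 ± 0.52 (SD, n = 26) and 7.52 ± 0.36 (SD, n = 11), were almost equal. The fitted log2 difference of 0.043, with a standard error of 0.18 (adjusted p = 0.889), differs in sign from that of the means, and it was -0.028 with limma-voom and -0.28 among AT-rich barcodes. It did not pass under any of these.

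**Figure D2:**
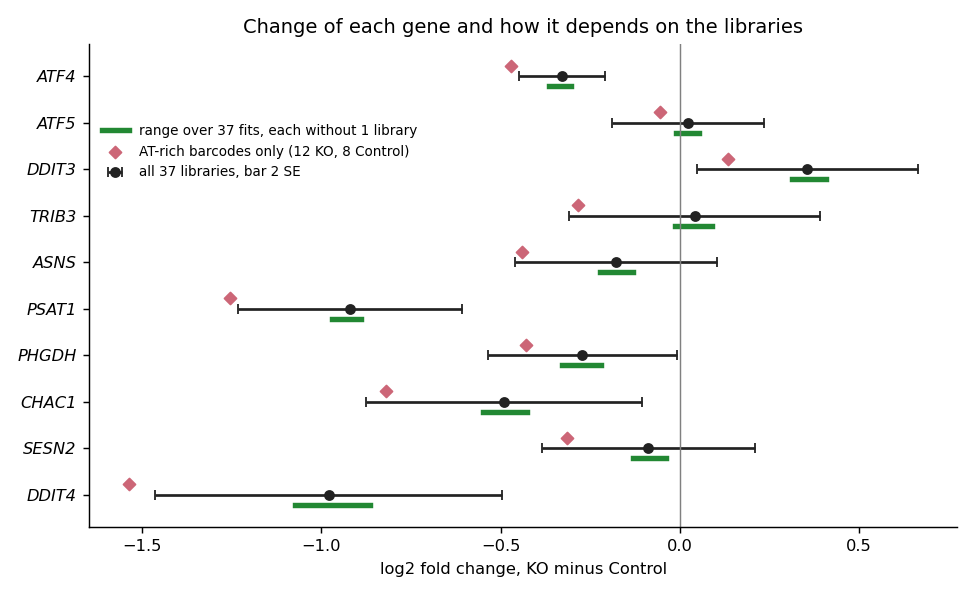
Log2 fold change, KO minus control (horizontal axis), of each gene over all 37 libraries (black points, bars 2 standard errors), the range over the 37 fits that leave out 1 library (green) and the value among AT-rich barcodes (red diamonds, 12 KO and 8 control libraries). For every gene the diamond lies to the left of the black point.

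Of the enzymes of serine synthesis, PSAT1 passed the test and PHGDH and PSPH did not. PSPH, from the lists below, had a log2 difference of -0.13 (adjusted p = 0.228), with 22 of 26 KO libraries in the control range. PSAT1 (ENSG00000135069, chromosome 9), the aminotransferase of the second step of serine synthesis, had 6.77, 7.18 and 7.32 log2 CPM in the lowest, median and highest control library and 5.07, 6.19 and 7.12 in KO. The control libraries were tightly grouped, and 24 of 26 KO libraries lay below all of them. The exceptions were the KO library GACCGC with 6.82 and the KO library GGCCAC with 7.12. The mean fell from 7.13 ± 0.18 (SD, n = 11) to 6.11 ± 0.59 (SD, n = 26), and the fitted log2 difference was -0.92 with a standard error of 0.16 (adjusted p = 2.06e-05), a level 0.528 times that of control. The KO libraries varied among themselves by 2.05 log2 CPM, against 0.55 in control. At the low end, the KO libraries CCCTGG with 5.07 and ATTACT with 5.14 and TTAGTT with 5.18 held 47, 71 and 55 UMIs. TGTTTA and TAAGAT followed with 5.18 and 5.26. The next KO library, ATCAAA, had 5.51.

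PHGDH (ENSG00000092621, chromosome 1), the dehydrogenase that commits 3-phosphoglycerate from glycolysis to serine, had 6.74, 7.49 and 8.02 log2 CPM in the lowest, median and highest control library and 6.26, 7.41 and 7.76 in KO. No KO library exceeded the highest control and 4 lay below the lowest, but 22 were within the control range. The log2 difference of -0.27, with a standard error of 0.13, did not pass (adjusted p = 0.107), except when the control library CGGTGG, its lowest control, was left out (-0.33, adjusted p = 0.0463). The difference between the changes of PSAT1 and PHGDH was not tested.

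ASNS (ENSG00000070669, chromosome 7, 97851677 to 97872542), the asparagine synthetase, had 7.74, 8.30 and 8.68 log2 CPM in the lowest, median and highest control library and 7.32, 7.93 and 8.78 in KO. KO libraries lay below the lowest control in 6 cases and above the highest in 2. No KO library lay between 7.96 (TTAGTT) and 8.41 (TAAAGT) log2 CPM, so the KO mean of 8.07 fell in a gap. The log2 difference was -0.18 over all libraries, with a standard error of 0.14 (adjusted p = 0.348), and -0.44 among AT-rich barcodes, where it passed (adjusted p = 0.0364). Pseudogene copies, of which ASNSP1 had the most at 841 UMIs over all libraries against 27116 for ASNS, make a small part of its count uncertain.

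DDIT4 (ENSG00000168209, chromosome 10, 72273919 to 72276036), which encodes REDD1, an inhibitor of mTORC1, had a fitted change close in size to that of PSAT1, but its groups overlapped more. It had 4.65, 6.20 and 7.12 log2 CPM in the lowest, median and highest control library and 4.23, 5.23 and 6.47 in KO. The controls themselves spanned 2.46 log2 CPM. Of the KO libraries, 2 lay above the control median and 4 below the lowest control. The fitted log2 difference was -0.98 with a standard error of 0.24 (adjusted p = 0.0020), and it was -1.54 among AT-rich barcodes (adjusted p = 0.000503). DDIT4 is also induced by hypoxia and glucocorticoids.

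CHAC1 (ENSG00000128965, chromosome 15, 40952962 to 40956512), which degrades glutathione, was the scarcest of the 10, with 6 to 55 UMIs among the controls and 5 to 45 among the KO libraries. It had 3.22, 3.69 and 4.21 log2 CPM in the lowest, median and highest control library and 2.01, 2.92 and 4.14 in KO. Below the lowest control lay 17 of 26 KO libraries, and none exceeded the highest. Its difference of -0.49 on the log2 scale, with a standard error of 0.19, passed narrowly (adjusted p = 0.0455). In 24 of the 37 fits that left out 1 library the adjusted p was above 0.05, up to 0.0963 without the control library ATGAAT, and it was 0.0711 with library size alone and 0.0949 with no filter on low counts. Among AT-rich barcodes the log2 fold change was -0.82 (adjusted p = 0.00445).

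SESN2 (ENSG00000130766, chromosome 1), a sestrin that holds mTORC1 back when leucine is scarce, averaged 7.0 ± 0.34 log2 CPM (SD, n = 11) over the controls and 6.91 ± 0.46 (SD, n = 26) over the KO libraries. KO libraries lay on both sides of the control range, 4 above it and 7 below. The log2 difference of -0.088, with a standard error of 0.15, did not pass (adjusted p = 0.692). ATF4, DDIT4 and PSAT1 passed the threshold in all 37 fits that left out 1 library and under all 10 other settings tried.

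Because a UMI counts 1 molecule whatever the transcript length, levels can be set side by side between genes, apart from differences in capture. In control libraries ATF4 and ASNS were the most abundant (8.44 and 8.27 log2 CPM), followed by PHGDH and TRIB3 (7.55 and 7.52), PSAT1 and SESN2 (7.13 and 7.0), DDIT4 (6.06), ATF5 and DDIT3 (4.97 and 4.83) and CHAC1 (3.69). Genes named together in this order differed by less than the larger of their SDs. In KO libraries PSAT1 stood 0.80 log2 CPM below SESN2, where it had stood 0.13 above in control, and DDIT4 came level with DDIT3.

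Barcode composition was uneven between the groups, and in KO the 10 genes averaged higher in GC-rich than in AT-rich libraries. Of the KO libraries 12 had an AT-rich barcode (at most 2 G or C) and 12 a GC-rich one, while 8 control libraries had an AT-rich barcode and 1 a GC-rich one. For all 10 genes the mean of the GC-rich KO libraries was above that of the AT-rich KO libraries, by 0.12 log2 CPM for ATF5 up to 0.62 for DDIT4. PSAT1, for example, averaged 5.79 ± 0.53 (SD, n = 12) in AT-rich and 6.34 ± 0.54 (SD, n = 12) in GC-rich KO libraries, and 7.17 ± 0.17 (SD, n = 8) in AT-rich controls. The only GC-rich control went the other way, below the mean of the AT-rich controls for 9 of the 10 genes. Whether barcodes follow clones is not known. The differences between barcode classes were not tested, and most of the 10 genes varied together, so they are not 10 separate observations. The class means also average over a gap among the KO libraries, described below, with libraries of both classes on each side. For ATF5 the KO difference was smaller than the SD within either class (0.35 in AT-rich and 0.36 in GC-rich). With the number of G and C bases as a covariate the same 4 genes were lower, with log2 fold changes of -0.37 for ATF4, -1.06 for PSAT1, -1.11 for DDIT4 and -0.60 for CHAC1. Among AT-rich barcodes the log2 fold change was -0.47 for ATF4 (adjusted p = 1.29e-05) and -1.26 for PSAT1 (adjusted p = 2.21e-05), while GC-rich barcodes had too few controls for a comparison.

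**Figure D3:**
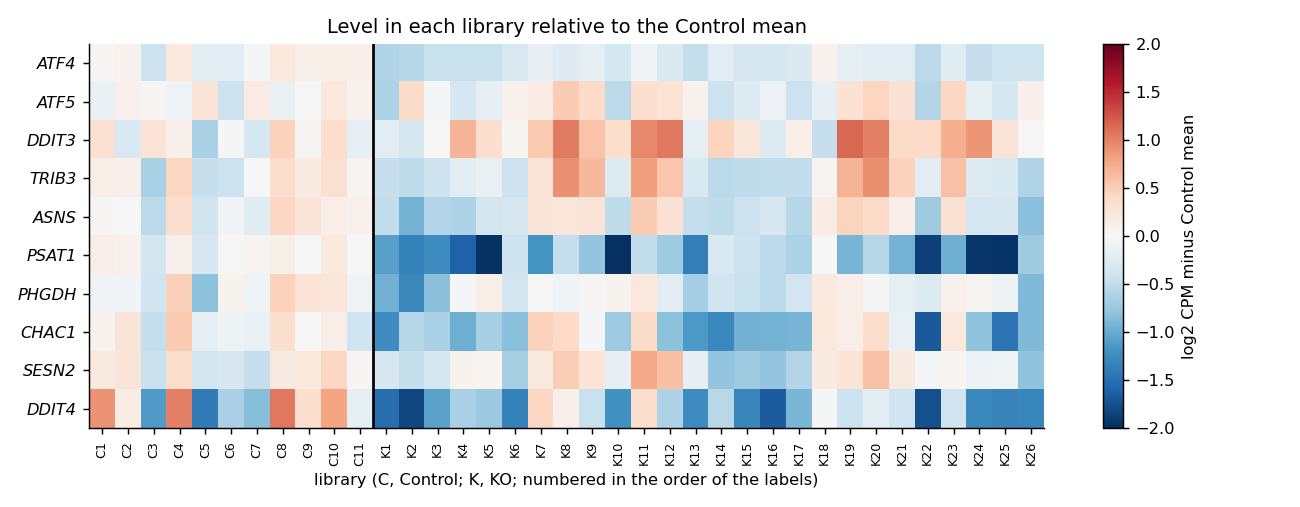
Log2 CPM minus the control mean of each gene (rows) in each library (columns, 11 control libraries left of the line and 26 KO libraries right of it, in label order), with blue for lower and red for higher values. PSAT1 is blue in nearly every KO library, ATF4 is below the control mean in all but GGCCAC (K18), and TRIB3, DDIT3 and SESN2 are red together in a part of the KO libraries.

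Most of the 10 genes varied together from library to library within a group, ATF5 and PSAT1 least. After taking off each group mean, 29 of the 45 pairs had a Pearson r above 0.5 over the 37 libraries, with a median of 0.63. These values share libraries, depth and barcode composition and are a description. The closest pairs were TRIB3 with ASNS (r = 0.91), TRIB3 with SESN2 (0.88) and ATF4 with DDIT4 (0.82). The KO library CCGGAC was the highest KO library for ASNS, SESN2 and PHGDH, and the control library ATATAG the lowest control for ATF4, TRIB3, ASNS, CHAC1 and PSAT1. ATF5 and PSAT1 each had a median r of 0.32 with the others.

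The correlations of PSAT1 are given by group as a description. Among the 11 control libraries its r was 0.80 with PHGDH, 0.86 with TRIB3 and 0.73 with SESN2. Among the 26 KO libraries the same values were -0.051, 0.24 and -0.044, while its r with ATF4 was 0.85 in control and 0.64 in KO. ATF4 and TRIB3 had an r of 0.98 in control and 0.59 in KO. The r of ATF5 with CHAC1 was -0.22 in control and 0.75 in KO. The differences between groups were not tested, and 11 libraries fix an r only loosely.

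Outside the 10, the genes most like their mean pattern included known ATF4 targets. Of 8791 genes averaging 10 CPM or more, the 8 with the highest r to the mean of the standardized members were SLC3A2 (0.89), the heavy chain of amino acid transporters, RTN4 (0.88), CTH (0.88), the cystathionine gamma-lyase, WARS1 (0.88), the tryptophanyl-tRNA synthetase, MKNK2 (0.87), VEGFA (0.87), INHBE (0.87) and RBCK1 (0.87). Of these, 4 were on the lists described next, as were 15 of the 30 most alike. Of the 8, only MKNK2 passed the test between KO and control, and it was higher (0.27, adjusted p = 0.0401).

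The upstream arm showed small differences. None of the 4 eIF2alpha kinases passed the test: the log2 fold change was 0.025 for EIF2AK1 (HRI, the heme-regulated kinase of erythroid cells), -0.13 for EIF2AK2 (PKR, adjusted p = 0.0699), 0.19 for EIF2AK3 (PERK) and 0.11 for EIF2AK4 (GCN2). Of 10 genes for eIF2, its exchange factor eIF2B and the eIF2alpha phosphatase, 4 were lower and 1 higher, beside 16.2% and 17.7% of all genes. The lower genes were the eIF2 subunits EIF2S1 (-0.11), EIF2S2 (-0.16, adjusted p = 0.000395) and EIF2S3 (-0.15, adjusted p = 0.00541) and the eIF2B subunit EIF2B3 (-0.19, adjusted p = 0.000611). The higher gene was PPP1R15B (0.19, adjusted p = 0.00902), the constitutive phosphatase subunit that removes the mark from eIF2alpha. PPP1R15B did not pass after thinning (0.23, adjusted p = 0.0637) or among AT-rich barcodes (0.15, adjusted p = 0.149), nor did EIF2B3 after thinning (-0.13, adjusted p = 0.111). Of 8 tested partners and related stress factors, TRIB2, a relative of TRIB3, fell by 0.59 on the log2 scale (adjusted p = 1.79e-07), with 24 of 26 KO libraries below the lowest control. In the same list NFE2L2 was lower (-0.23) and JUN higher (0.35). NUPR1, a small stress protein, was below the filter with 0 to 5 UMIs in control and 0 to 14 in KO libraries.

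The 4 groups of target genes, with 52 genes tested together, had 20 lower and 5 higher in KO (38.5% and 9.62%), beside the 16.2% and 17.7% of all genes. Their median log2 fold change was -0.13. The lists were chosen with earlier results of these data known, so these shares are a description and not independent evidence. The enzymes of serine, glycine, proline and transsulfuration pathways had 5 lower and 1 higher of 12. GPT2, a mitochondrial alanine transaminase, fell most, from 5.0 ± 0.26 log2 CPM (SD, n = 11) to 4.06 ± 0.46 (SD, n = 26), with 20 of 26 KO libraries below the lowest control (-0.92, adjusted p = 6.96e-07). ALDH1L2, a mitochondrial folate enzyme, was lower by a narrow margin (-0.58, adjusted p = 0.0478) and was above 0.05 in 26 of the 37 fits without 1 library. MTHFD1L (-0.26), MTHFD2 (-0.18) and PYCR1 (-0.29) were lower and ALDH18A1 (0.22) higher.

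Of the 20 cytosolic aminoacyl-tRNA synthetases, which charge tRNAs with amino acids, 8 were lower and none higher, with a median log2 fold change of -0.13. None of the 8 changed by more than 0.27: VARS1 by -0.27 (adjusted p = 0.00192), FARSB by -0.25 (adjusted p = 0.00379), SARS1 by -0.24 (adjusted p = 0.000162) and FARSA by -0.21 (adjusted p = 0.0253) led the list. VARS1 and FARSB no longer passed after thinning to the smallest total, at -0.12 and -0.15. FARSA missed the threshold with library size alone (-0.18, adjusted p = 0.0532), with no filter (-0.22, adjusted p = 0.067) and among AT-rich barcodes (-0.24, adjusted p = 0.106), where the difference was not smaller.

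Of 8 amino acid transporter genes induced by ATF4, SLC7A5, the large neutral amino acid transporter that brings in leucine, fell from 9.26 ± 0.11 log2 CPM (SD, n = 11) to 8.58 ± 0.38 (SD, n = 26), with 22 of 26 KO libraries below the lowest control (-0.64, adjusted p = 1.91e-05). SLC7A1, for cationic amino acids, was also lower (-0.25), and SLC6A9, for glycine, was higher (0.46). SLC3A2, the partner of SLC7A5, did not pass (-0.16, adjusted p = 0.174).

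Of 12 other ATF4 and DDIT3 targets 5 were lower and 3 higher, and the largest fall of all the lists was among them. STC2, a secreted glycoprotein, fell from 4.40 ± 0.46 log2 CPM (SD, n = 11) to 2.08 ± 1.01 (SD, n = 26), with 13 to 102 UMIs per control and 1 to 39 per KO library. Of the KO libraries 25 lay below the lowest control, the exception being GGCCAC with 4.40 log2 CPM, and the fitted log2 difference was -2.24 with a standard error of 0.28 (adjusted p = 9.73e-08). GDF15, a stress cytokine, went the other way, from 6.96 ± 0.39 (SD, n = 11) to 7.92 ± 0.77 (SD, n = 26), with 14 of 26 KO libraries above the highest control (1.10, standard error 0.26, adjusted p = 0.00133). CDKN1A, the cell cycle inhibitor p21, was also higher (0.81, adjusted p = 0.0296) but missed the threshold with limma-voom (0.55, adjusted p = 0.148), among AT-rich barcodes (0.57, adjusted p = 0.196), with barcode GC as covariate (0.67, adjusted p = 0.0864) and with no filter (0.79, adjusted p = 0.0829). SESN1, another sestrin, was the other higher gene (0.27). ERO1A (-0.41), EIF4EBP1 (-0.29), XPOT (-0.17) and CHAC2 (-0.14) were lower beside STC2.

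**Figure D4:**
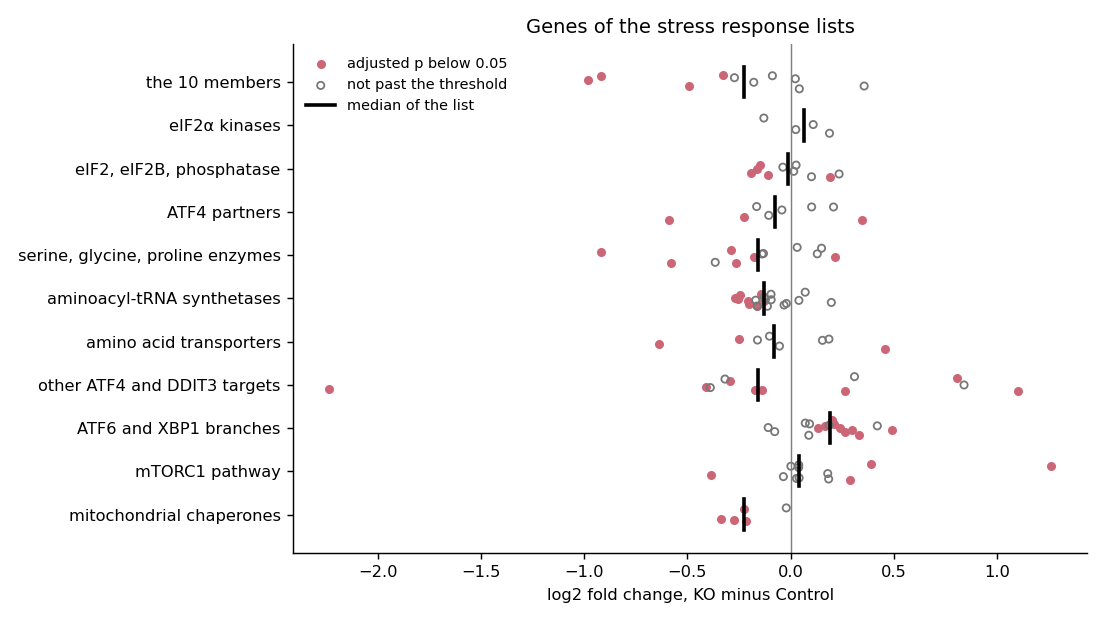
Log2 fold change, KO minus control (horizontal axis), of the tested genes of each list (rows); filled red points passed an adjusted p of 0.05, open points did not, and the black bar is the median of the list. The synthetases and mitochondrial chaperones have filled points only on the left of 0 and the ATF6 and XBP1 list only on the right.

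Neighbouring stress pathways did not follow one direction. The ATF6 and XBP1 branches of the unfolded protein response raise folding capacity of the endoplasmic reticulum. They had 9 higher and none lower of 16 tested genes, beside 17.7% higher and 16.2% lower of all genes. Their median log2 fold change was 0.19. SEL1L, of the degradation complex, was higher by 0.49 (adjusted p = 0.00046), the chaperone partner DNAJB9 by 0.33 (adjusted p = 0.0214), MANF by 0.30 (adjusted p = 0.00949) and CRELD2 by 0.26 (adjusted p = 0.0322). Among KO libraries GGCCAC was the lowest for SEL1L, DNAJB9 and CRELD2. DNAJB9, MANF and CRELD2 no longer passed after thinning, with log2 fold changes of 0.24, 0.19 and 0.36. DNAJB9 also missed the threshold among AT-rich barcodes (0.27, adjusted p = 0.0983) and with no filter (0.32, adjusted p = 0.0522), and CRELD2 with limma-voom (0.22, adjusted p = 0.0732) and with no filter (0.25, adjusted p = 0.107). Of 5 mitochondrial chaperones and proteases 4 were lower, beside 16.2% of all genes. These were CLPP by -0.34 (adjusted p = 0.000585), HSPE1 by -0.28 (adjusted p = 0.0465), HSPD1 by -0.22 (adjusted p = 0.0242) and LONP1 by -0.21 (adjusted p = 0.017). HSPE1 was above 0.05 in 26 of the 37 fits without 1 library and in 6 of 10 other settings, HSPD1 in 4 of the 10 (adjusted p up to 0.169) and LONP1 with library size alone (adjusted p = 0.0541). DELE1, which relays mitochondrial stress to HRI, did not pass (-0.16, adjusted p = 0.0609).

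In the mTORC1 pathway, which SESN2 and DDIT4 restrain and which itself raises ATF4, 3 of 12 tested genes were higher and 1 lower, a share of changed genes like the 33.8% over all genes. RRAGD, one of the Rag GTPases that recruit mTORC1 to the lysosome, rose from 3.50 ± 0.34 log2 CPM (SD, n = 11) to 4.62 ± 0.55 (SD, n = 26), with 22 of 26 KO libraries above the highest control (1.26, standard error 0.18, adjusted p = 1e-06). RRAGC (0.39) and RRAGA (0.29) were higher too, and RPTOR, the scaffold subunit raptor, was lower (-0.38).

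Of 8 tested erythroid markers 3 were lower and 1 higher in KO, beside 16.2% and 17.7% of all genes. GATA1 (-0.19, adjusted p = 0.0303), KLF1 (-0.22, adjusted p = 0.039) and TFRC (-0.37, adjusted p = 1.51e-05) were lower and TAL1 (0.39, adjusted p = 0.0258) higher. HBG1, HBG2 and HBZ did not pass. Among AT-rich barcodes GATA1 (-0.13, adjusted p = 0.292), KLF1 (-0.16, adjusted p = 0.292) and TAL1 (0.43, adjusted p = 0.0736) missed the threshold. The difference of TAL1 was there no smaller than over all libraries. KLF1 missed it in 10 of the 37 fits without 1 library and in 5 of 10 other settings. GATA1 missed it in 4 of the 37 and 4 of the 10, and TAL1 in 4 of the 10. The part of the differentiation state of the clones in the results was not tested, and in bulk RNA fewer cells of a state and less RNA per cell cannot be told apart.

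Without the KO library GGCCAC alone, the 4 lower genes passed, with log2 fold changes of -0.35 for ATF4, -0.97 for PSAT1, -1.02 for DDIT4 and -0.52 for CHAC1, and DDIT3 passed as well. The values were then -0.96 for GPT2, -0.67 for SLC7A5, -2.44 for STC2, 0.51 for SEL1L, 0.35 for DNAJB9 and 0.29 for CRELD2, all past the threshold. Without GGCCAC and the shallowest control library GTTTAT, left out together after the data were seen, the 4 lower genes all passed again and CHAC1 joined PSAT1 and DDIT4 in having an absolute log2 fold change above 0.5. The log2 fold changes were then -0.35 for ATF4, -0.96 for PSAT1, -1.06 for DDIT4 and -0.53 for CHAC1, close to those over all libraries. For STC2 the value was -2.43.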

How the data were processed

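The deposited table holds UMI counts per gene for 37 bulk libraries, each made from lysed K562 cells. Reads were aligned by the authors to hg38 using STAR (2.6.0a per the submitters' processing notes), who counted UMIs with zUMIs over Ensembl genes, with no normalization; the zUMIs version is not given in the sources used here. All columns were matched to samples by their barcode, and 0 were left unmapped. Symbols and positions came from GENCODE on GRCh38, which named 31323 of 32055 identifiers and is not the annotation behind the counts.

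The test was edgeR's robust quasi-likelihood test (edgeR 4.0.16, R 4.3.3) after filterByExpr and TMM, with 1 term for group and p-values adjusted by Benjamini-Hochberg over 10661 genes. Standard errors were taken as the log2 fold change, without its sign, over the square root of F. Log2 CPM per library has a prior count of 2. The code was tested on simulated data. The study's own threshold, an absolute log2 fold change above 0.5 beside an adjusted p below 0.05, was used as the stricter rule.

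The 10 genes and the 16 lists (152 genes) were chosen with earlier results of these data known, so no list is independent evidence. Named were all members, every eIF2alpha kinase, the genes of each list past the stricter rule or otherwise its 4 largest changes, and the 8 genes most like the members. Other genes of the lists, among them EIF2S1, JUN, NFE2L2, PSPH, MTHFD1L, SLC6A9, SLC7A1, SLC3A2, SESN1, ERO1A, RRAGC, RPTOR, DELE1, NUPR1 and MARS1, were named after their values were seen. Alternatives were limma-voom (limma 3.58.1), DESeq2 1.42.0, RLE factors, library size alone, other count filters, AT-rich barcodes only, barcode GC as covariate, thinning, a stricter p and leaving out libraries. Of the listed symbols 9 had no row and were not analysed here.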

Additional observations from a re-analysis of the deposited data

How the results depend on the processing

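Of the changes between KO and control, those of ATF4, PSAT1 and DDIT4 kept their direction and stayed past the threshold in all 37 fits without 1 library and under all 10 other settings. No member was higher over all libraries, but 1, DDIT3, was with library size alone, with DESeq2 and after thinning to the smallest total, where 1 also passed the fold threshold; leaving out 1 library gave 0 to 1. Members changed to lower numbered 3 to 5 without 1 library. ATF5 turned to -0.054 among AT-rich barcodes, to -0.00035 with barcode GC as covariate and ranged from -0.010 to 0.055 without 1 library. TRIB3 turned to -0.028 with limma-voom, -0.28 among AT-rich barcodes and -0.059 with barcode GC as covariate, and ranged from -0.012 to 0.091 without 1 library. The cause was not tested.

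Over all genes, thinning gave 847 higher and 780 lower in place of 1882 and 1724, and 415 and 199 past the fold threshold in place of 709 and 376, since fewer counts were left. An adjusted p below 0.01 gave 1251 and 1020. A mean of at least 10 CPM gave 453 and 219 past the fold threshold, with fewer genes tested, and no filter gave 740 lower. CHAC1 gave no value after thinning or at 10 CPM. No paired analysis was possible because the columns carry no replicate numbers. Depth limits the scarcest of the 10 genes, CHAC1, with a mean of 25.4 UMIs per library.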
